A study of Mus musculus with 12 samples.

Results

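The genes described here are 38 mouse genes of glycolysis and of the cellular response to low oxygen, taken by symbol from a table of 24421 gene symbols. They comprise 7 regulators of the hypoxia-inducible factors (HIFs), 22 genes of glycolysis and of the pyruvate branch that follows it, and 9 other HIF target genes. All 38 symbols were in the table, and all 38 passed the filter on low counts that left 13534 genes for testing.

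The study profiled ribosome-bound mRNA of the tumour endothelium in 7 highly metastatic B16F10 tumours and 5 poorly metastatic B16F0 tumours. Both are mouse melanoma lines, which were grown under the skin for 12 days. All hosts were C57BL/6 mice of genotype Rpl22fl/flHA;Cdh5(PAC)-CreERT2 that received tamoxifen. In this RiboTag design, Cre driven by the endothelial Cdh5 promoter switches the ribosomal protein Rpl22 to an HA-tagged form, so that tagged ribosomes can be pulled down with the mRNA they carry. The ages and sexes of the hosts are not in the labels, and nothing there says whether each library came from its own animal. If libraries share an animal, the p-values measure technical spread as well.

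The libraries held 5322510 to 20569186 counts. Each labelled endothelial library expressed the endothelial markers, and also expressed the genes of pigment cells at a far higher level. The 20 endothelial markers (Cdh5, Pecam1, Kdr and others) summed to 767 to 5438 CPM in B16F10 and 1050 to 5928 CPM in B16F0. The 20 melanocytic markers (Pmel, Tyr, Dct and others) summed to 12186 to 25032 CPM in B16F10 and 15098 to 25502 CPM in B16F0, and 1 of the 20 was called, lower in B16F10. CPM is the count of a gene scaled to the library total. A level given below is therefore that of the pulldown and cannot be assigned to 1 cell type. In such material, fewer cells of a type and less RNA per cell cannot be told apart. In 2 libraries, B16F10 replicate 5 and B16F0 replicate 5, the ribosomal RNA repeat Rn45s took 31.4% and 8.91% of counts.

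HIFs are transcription factors made of an oxygen-regulated alpha subunit and the stable partner Arnt. When oxygen is present, prolyl hydroxylases of the Egln family mark the alpha subunit and Vhl targets it for destruction, while Hif1an blocks its activity. Much of this control acts on the protein and is not visible in mRNA. Hif1a is expressed in most cells and is best known for driving glycolytic enzymes; Epas1, which encodes HIF-2 alpha, is abundant in endothelium. Tumour cells often make lactate from glucose even in the presence of oxygen, and tumour endothelial cells are likewise known for their reliance on glycolysis.

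HIF complexes recognise a short core that can be written ACGTG or, in a related form, GCGTG. Only ACGTG is marked in the 5 upstream regions shown here. They are shown because their genes moved in opposite ways across the libraries, as described below. Each run is the 250 bases before a transcription start of the RefSeq annotation on GRCm38.p6, 5′ to 3′ on the strand of the gene, with ACGTG on either strand (CACGT when it lies on the other strand) in capitals. The lactate dehydrogenase gene Ldha, the aldolase genes Aldoa and Aldoc, the hydroxylase gene Egln3 and the HIF target Ankrd37 are given at chr7:46845554-46845803 (plus strand), chr7:126799255-126799504 (minus), chr11:78322823-78323072 (plus), chr12:54203875-54204124 (minus) and chr8:45999851-46000100 (minus), in that order.
Ldha: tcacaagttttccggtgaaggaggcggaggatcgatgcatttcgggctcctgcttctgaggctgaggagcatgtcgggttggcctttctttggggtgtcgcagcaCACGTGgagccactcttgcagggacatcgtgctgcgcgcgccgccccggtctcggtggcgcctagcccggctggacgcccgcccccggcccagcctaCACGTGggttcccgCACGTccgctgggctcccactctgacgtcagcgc
Aldoa: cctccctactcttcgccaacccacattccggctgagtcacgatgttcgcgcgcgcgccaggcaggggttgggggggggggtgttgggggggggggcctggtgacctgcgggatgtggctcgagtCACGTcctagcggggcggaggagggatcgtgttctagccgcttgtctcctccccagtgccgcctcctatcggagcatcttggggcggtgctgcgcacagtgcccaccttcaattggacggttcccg
Aldoc: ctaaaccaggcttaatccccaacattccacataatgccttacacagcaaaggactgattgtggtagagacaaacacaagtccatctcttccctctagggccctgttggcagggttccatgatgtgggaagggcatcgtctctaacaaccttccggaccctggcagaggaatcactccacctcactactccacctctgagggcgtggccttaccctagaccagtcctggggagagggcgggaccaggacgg
Egln3: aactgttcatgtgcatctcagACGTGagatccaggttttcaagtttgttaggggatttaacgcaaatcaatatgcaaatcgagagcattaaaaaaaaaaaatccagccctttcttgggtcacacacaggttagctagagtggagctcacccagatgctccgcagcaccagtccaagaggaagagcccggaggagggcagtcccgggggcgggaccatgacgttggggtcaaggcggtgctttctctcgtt
Ankrd37: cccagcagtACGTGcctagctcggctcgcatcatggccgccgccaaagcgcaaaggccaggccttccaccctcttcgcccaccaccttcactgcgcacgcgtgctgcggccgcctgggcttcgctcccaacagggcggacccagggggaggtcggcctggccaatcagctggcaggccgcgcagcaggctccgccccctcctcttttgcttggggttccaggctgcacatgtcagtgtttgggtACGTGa

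The Ldha region held 5 matches counted over both strands, of which 4 came from 2 copies of the palindrome CACGTG. Its matches began between 145 and 34 bases before the start. The Ankrd37 region held 2 matches, and those of Aldoa and Egln3 held 1 each. The Aldoc region held 0. At other annotated starts the counts differed for some genes: a second Ldha start had 0 matches in its 250 bases, and other Aldoa starts had 1 or 0. A second Aldoc start had 0, as the printed region did. When each window was extended by the first 50 bases of the transcript, ACGTG on either strand was present for 23 of the 35 members with a window (65.7%), Aldoc included. The same windows held it in 21.8% of 27025 genes, and in 29.2% of the 10234 tested genes with a window. A gene was counted if any of its annotated starts held it. Counted by window, ACGTG was in 50.9% of the 53 windows of members and 19.6% of all 32851 windows. The related core GCGTG was found in 65.7% of members and 55.1% of tested genes, and CACGTG, each copy of which also counts as ACGTG, in 17.1% and 11.6%. The members' windows were richer in G and C, with a median GC content of 63.3% against 60.3% in tested genes and 52.7% in all genes, and the part of this in the shares was not tested. No window was used for Epas1, Bnip3l and Ndrg1.

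None of the 38 members passed the test for a difference between the tumour lines. With edgeR's quasi-likelihood test and the sequencing lane in the fit, 0 of 38 passed a false discovery rate of 0.05, against 2.77% of all tested genes (1.3% higher and 1.47% lower in B16F10). At an unadjusted p under 0.05, 1 member was higher in B16F10 (Ak4), against 7.13% of tested genes, and 4 were lower (Vhl, Aldoc, Pdk1 and Bnip3l), against 7.71%. The median log2 fold change, B16F10 over B16F0, was -0.09 over the 38 members and 0.02 over all tested genes. Negative values were found for 26 members and positive ones for 12. No member had groups that failed to overlap, whereas 2.73% of tested genes did. DESeq2 called 1 of 38 members (Bnip3l) and 6.32% of its tested genes, and limma-voom called 0 members and 4.94% of genes.

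**Figure D1:**
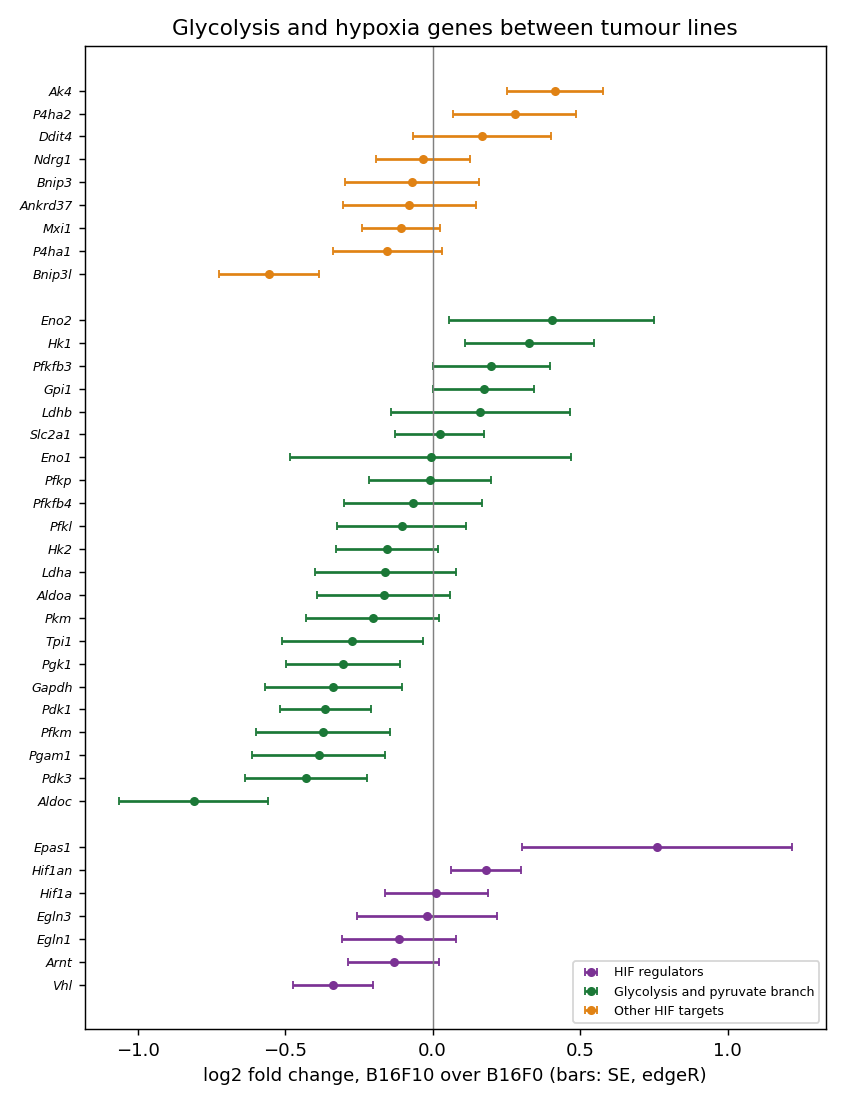
Log2 fold change of each of the 38 genes, B16F10 (n = 7) over B16F0 (n = 5), on the horizontal axis, with bars showing the standard error and genes grouped by role on the vertical axis. The estimates run from -0.81 for Aldoc to 0.76 for Epas1, and no gene passed the test.

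Among the regulators, Hif1a had the highest CPM, with similar medians in both lines. In B16F10 it was 281 CPM at the lowest, 528 at the median and 818 at the highest. The B16F0 libraries, replicates 1 to 5, gave 754, 568.3, 617, 397 and 345 CPM. The ranges overlapped almost completely, and the libraries of lane 6 were the lowest in each line. The log2 fold change was 0.01 ± 0.17 (SE, adjusted p = 0.984, edgeR), with a 95% interval from -0.33 to 0.35.

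Epas1 spread far more than Hif1a, and did so within each line. In B16F10 it was 62.7 CPM at the lowest, 143 at the median and 273 at the highest. In B16F0 it was 69.3, 55.8, 258, 54.9 and 53.0 CPM in replicates 1 to 5. Thus 1 library of B16F0, replicate 3, was as high as the top B16F10 libraries, and the other 4 lay between 53.0 and 69.3 CPM. The log2 fold change was 0.76 ± 0.46 (adjusted p = 0.490, edgeR). With CPM divided by exon length, the ratio of Hif1a to Epas1 ran from 1.41 to 13.2 in B16F10 and from 2.42 to 11.01 in B16F0.

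The level of Epas1 followed the endothelial transcripts. An endothelial score, the mean log2 CPM of the 20 endothelial markers, was highest in B16F0 replicate 3 (7.29), B16F10 replicate 4 (7.17) and B16F10 replicate 5 (6.57), and lay between 4.36 and 5.36 in the other 9 libraries. Epas1 was highest in the same 3 libraries, at 258, 273 and 202 CPM. Its slope was 0.88 log2 CPM per unit of score (limma with lane and group in the fit, adjusted p = 0.00561). It was the 1 member of 38 to follow the score, against 3.58% of tested genes, and Hif1a had a slope of -0.15 (adjusted p = 0.441). The slope rested on those 3 libraries together: without them it was -0.058 (adjusted p = 0.999) and 0 genes followed the score, although leaving out any 1 library kept it between 0.74 and 1.00, with adjusted p from 0.00147 to 0.0368. With the melanocytic score also in the fit it was 0.58 (adjusted p = 0.0595).

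Vhl, which encodes the E3 ligase subunit that captures hydroxylated HIF alpha, had the second largest fold change of the regulators. It was 41.9 CPM at the lowest, 48.9 at the median and 58.7 at the highest in B16F10, against 68.2, 73.0, 61.0, 54.6 and 56.1 CPM in the B16F0 replicates. The 3 highest libraries were all B16F0, and the ranges met between 54.6 and 58.7 CPM. The log2 fold change of -0.34 ± 0.13 missed the threshold (unadjusted p = 0.0270, adjusted p = 0.255, edgeR). The hydroxylase genes Egln1 and Egln3 had values of -0.11 ± 0.19 and -0.02 ± 0.24, Hif1an 0.18 ± 0.12 and Arnt -0.13 ± 0.15. None of the 4 passed the test.

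Levels of the 22 glycolysis genes can be compared with each other only per length of transcript. Divided by the exon length of GENCODE M21 models, the highest medians over the 12 libraries were those of Aldoa (434 CPM per kb), Ldha (369), the pyruvate kinase gene Pkm (306) and the triose phosphate isomerase gene Tpi1 (270). Hexokinase 2 (Hk2) stood at 98.5 CPM per kb and hexokinase 1 (Hk1) at 51.0, and the glucose transporter gene Slc2a1 at 42.6. Gapdh and Pgk1, which encode successive enzymes of the pathway, stood at 21.1 and 17.1, and Eno1 at 0.385. For these genes the counting of shared reads matters. Of the 50-base words in their transcripts, 58.4% of those of Gapdh, 68.0% of those of Pgk1 and 49.5% of those of Eno1 also occur in another gene, mostly in pseudogenes or, for Eno1, in Eno1b. The sources used here do not say how such reads were counted, and the levels of these 3 genes, and of Bnip3 (59.1%) and Pgam1 (41.5%), are uncertain. Smaller shares of Pfkp (15.4%, with Pitrm1) and Ankrd37 (11.4%, mostly with Lrp2bp) are common to another gene. For Aldoa, Ldha, Tpi1 and Hk2 the share was 10.4% or less, and for Pkm it was 23.7%.

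**Figure D2:**
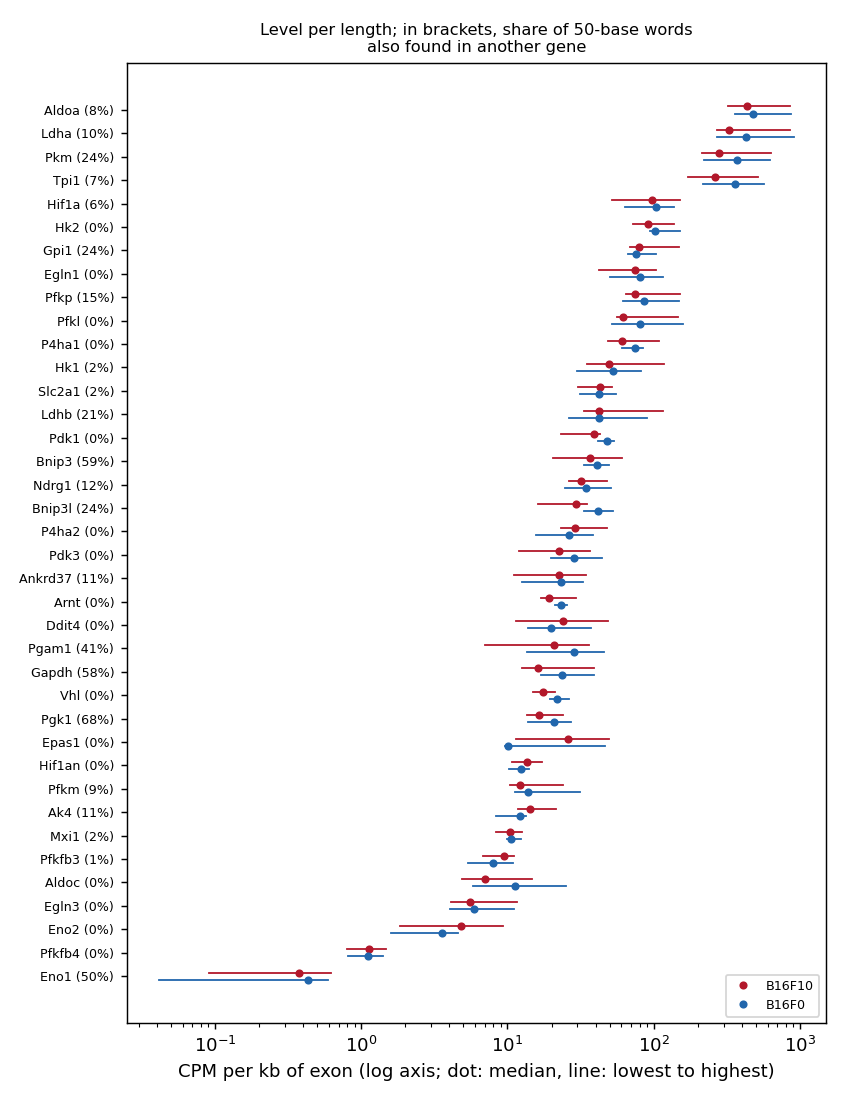
CPM per kb of exon for each gene on a log axis, with a dot for the median and a line from the lowest to the highest library, for B16F10 (n = 7) and B16F0 (n = 5). The percentage beside each name is the share of its 50-base words also found in another gene, and the lowest levels include Eno1, at 0.385 CPM per kb with 50% of its words shared.

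The enzymes varied widely between libraries, and none was called between the lines. Their median log2 fold change was -0.16, with 6 positive and 16 negative values among the 22. From the lowest to the highest library the level varied 3.03-fold (median over the 22 genes). Ldha, which turns pyruvate into lactate, was 515 CPM at the lowest, 615 at the median and 1627 at the highest in B16F10, and 958, 1718, 816, 515 and 637 CPM in B16F0 replicates 1 to 5. The 2 highest values belonged to B16F10 replicate 3 and B16F0 replicate 2, and the other 10 libraries lay at 958 CPM or lower. Between lines the log2 fold change was -0.16 ± 0.24 (adjusted p = 0.820, edgeR).

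The same 2 libraries stood highest for Aldoa, the main muscle-type aldolase. It was 586 CPM at the lowest, 786 at the median and 1567 at the highest in B16F10, and 1255, 1580, 871, 654 and 670 CPM in the B16F0 replicates. They carry the same library name prefix and were both sequenced on lane 1. These 2 libraries ranked first and second for 11 of the 22 enzyme genes (Aldoa, Eno1, Gpi1, Hk1, Hk2, Ldha, Ldhb, Pfkl, Pfkp, Pkm and Tpi1), a pattern chosen after the values were seen. They did so for 0 of the 7 regulators, 0 of the 9 other targets and 13.46% of all tested genes. Summed over the 22 genes they reached 9645 and 9617 CPM, while the other 10 libraries ranged from 3941 to 6949 CPM.

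**Figure D3:**
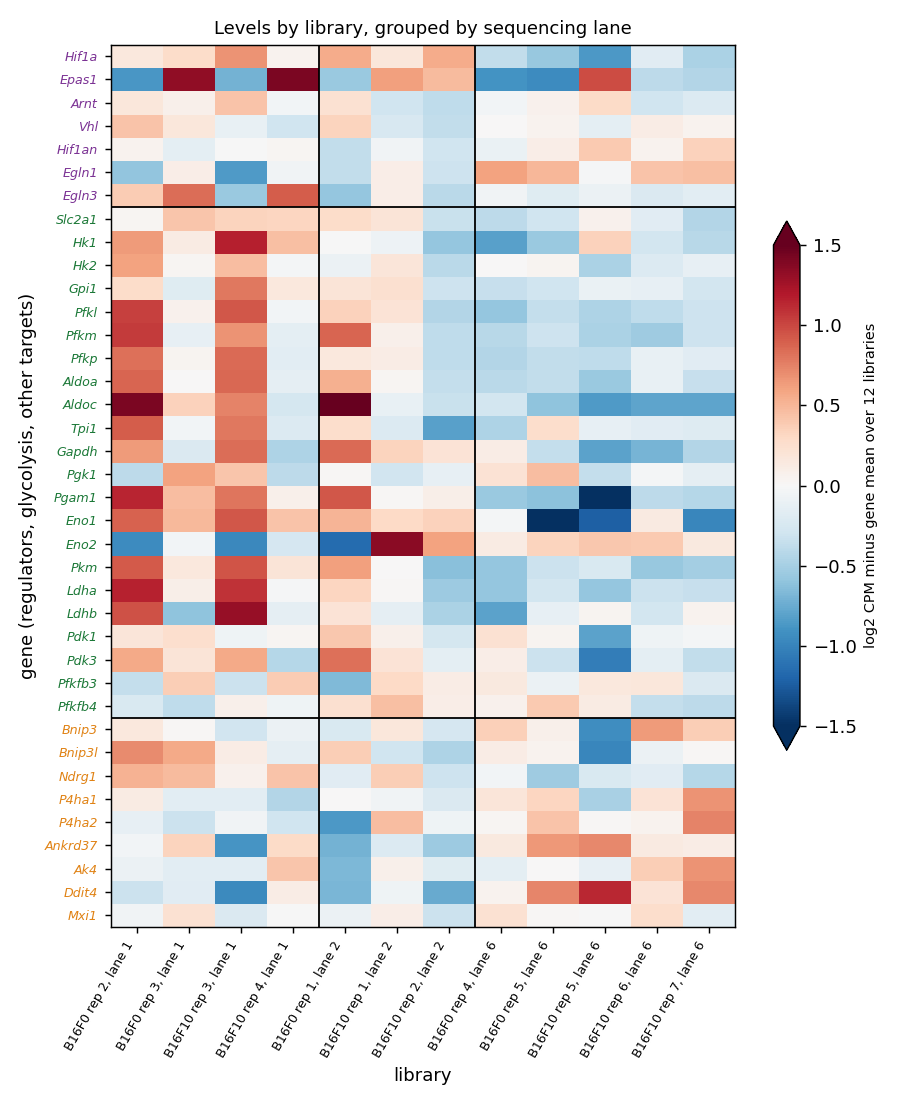
Log2 CPM of each gene minus its mean over the 12 libraries, as colour, for every library ordered by sequencing lane, with the 3 roles separated by lines and colours clipped at 1.5 either way. The columns of B16F0 replicate 2 and B16F10 replicate 3 are red across most glycolysis genes, where both libraries rank highest for 11 of 22.

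Aldoc, a second aldolase best known from brain, had the largest fold change of all 38 members. It was 14.5 CPM at the lowest, 20.8 at the median and 44.1 at the highest in B16F10, and 74.2, 69.8, 33.4, 21.5 and 17.2 CPM in B16F0 replicates 1 to 5. The 2 highest libraries were B16F0, and B16F0 replicates 3, 4 and 5 sat within the B16F10 range. Its log2 fold change was -0.81 ± 0.25 (unadjusted p = 0.00728, adjusted p = 0.128, edgeR), with the same sign in each of the 3 lanes. It fell by 0.50 on the log2 scale, and passed the test, when the library name prefix replaced the lane (adjusted p = 0.0383), a fit that called 4.65% of all tested genes. In that fit B16F10 replicates 1 and 2 and B16F0 replicate 1 do not inform the comparison, because their prefixes occur in a single line. In the authors' deposited table, Aldoc was the 1 member below a false discovery rate of 0.05, with a log2 fold change of -0.82 and an FDR of 0.0318.

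The kinases that inhibit pyruvate dehydrogenase, and so keep pyruvate from the mitochondrial route, had negative values. Pdk3 was 25.5 CPM at the lowest, 47.2 at the median and 77.6 at the highest in B16F10, and 93.3, 77.8, 60.03, 56.1 and 42.0 CPM in the B16F0 replicates. Its groups overlapped over most of their range, and the log2 fold change was -0.43 ± 0.21 (adjusted p = 0.363, edgeR). Pdk1, a classical HIF-1 target, ran from 121 to 223 CPM in B16F10 and from 217 to 279 CPM in B16F0, so that the groups met only in B16F10 replicate 1 and B16F0 replicate 5. For Pdk1 the log2 fold change was -0.36 ± 0.15 (unadjusted p = 0.0352, adjusted p = 0.286, edgeR).

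The remaining members of the pathway showed the same overlap. Log2 fold changes of the phosphofructokinase genes were -0.10 ± 0.22 for Pfkl, -0.37 ± 0.23 for Pfkm and -0.01 ± 0.21 for Pfkp. Of their summed CPM per kb of exon, Pfkp held 45.8% to 52.8% in B16F10 and 42.7% to 49.6% in B16F0. Ldha and Ldhb encode the subunits that favour lactate and pyruvate respectively. Their ratio in CPM per kb was 5.74 to 9.79 in B16F10 and 7.94 to 14.2 in B16F0. That of Hk2 to Hk1, also in CPM per kb, was 1.08 to 2.33 against 1.78 to 3.36. Pfkfb3, whose product makes the fructose 2,6-bisphosphate that activates phosphofructokinase, was 37.5 to 60.8 CPM in B16F10 and 29.6 to 60.5 CPM in B16F0. Its sister gene Pfkfb4 stayed between 2.81 and 5.13 CPM in both lines.

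Of the glycolysis genes not yet given by fold change, Eno2, an enolase best known from neurons, had the largest. It ran from 5.14 to 26.1 CPM in B16F10 and from 4.48 to 12.9 CPM in B16F0, with a log2 fold change of 0.40 ± 0.35. By lane, the log2 difference between the lines was -0.11 on lane 1, 2.13 on lane 2 and 0.08 on lane 6. Lane 2 held only replicate 1 of B16F0, the lowest library for Eno2, and B16F10 replicates 1 and 2, the highest (26.1 and 15.5 CPM). Positive values were also found for Hk1 (0.33 ± 0.22), the glucose phosphate isomerase gene Gpi1 (0.17 ± 0.17), Ldhb (0.16 ± 0.30) and Slc2a1 (0.02 ± 0.15). The phosphoglycerate mutase gene Pgam1 was at -0.39 ± 0.23, Gapdh at -0.34 ± 0.23, Pgk1 at -0.30 ± 0.19, Tpi1 at -0.27 ± 0.24 and Pkm at -0.20 ± 0.23. None of these genes, nor Hk2 (-0.16 ± 0.17), passed the test.

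Many of the enzymes rose with the transcripts of pigment cells. The melanocytic score, the mean log2 CPM of the 20 melanocytic markers, ran from 8.11 to 8.93 and was highest in B16F0 replicate 2 (8.93), B16F10 replicate 3 (8.84) and B16F0 replicate 1 (8.83). A slope on this score, with lane and group in the limma fit, was added after the values were seen. Taking slopes over 0.5 whose adjusted p was below 0.05, 10 of 22 enzyme genes rose with it (Aldoa, Aldoc, Gapdh, Ldha, Ldhb, Pdk3, Pfkl, Pfkm, Pfkp and Pgam1), against 13.5% of tested genes. Eno2 and Pfkfb3 fell with it, against 16.7% of tested genes. The slope was 1.43 ± 0.37 log2 CPM per unit for Ldha (adjusted p = 0.0198, limma), 1.40 ± 0.30 for Aldoa (0.0104) and 1.72 ± 0.35 for Aldoc (0.00851).

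Epas1, Egln3 and Ankrd37 fell with the melanocytic score. With Eno2 and Pfkfb3 they made 5 of 38 members, a share no higher than the 16.7% of all tested genes that fell. Their slopes were -3.06 ± 0.60 (adjusted p = 0.00774, limma), -1.56 ± 0.33 (0.0101) and -1.49 ± 0.30 (0.00853). Egln3, itself a HIF target, was highest in B16F10 replicate 4 (30.8 CPM) and B16F0 replicate 3 (29.3 CPM), 2 of the 3 libraries with the most endothelial transcripts, and was 10.8 to 21.3 CPM in the other 10. These 2 libraries, also the highest for Epas1, share a library name prefix and lane 1 as well, and the part of that in the levels was not tested. Hif1a had a slope of 0.71 (adjusted p = 0.114). The 2 scores come from the same libraries, and with the endothelial score also in the fit the 10 enzymes dropped to 1 (Aldoc), and Epas1 and Eno2 were the falling members. In that fit 4.94% of tested genes rose and 9.78% fell, and the median slope of the 22 enzymes was 0.99, against 1.15 without the endothelial score.

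The number of calls rested on few libraries, for the enzymes and for all genes alike. Of the 22 enzymes, 1 rose without B16F10 replicate 3 (2.83% of tested genes), 2 without B16F0 replicate 3 (5.16%) and 5 without B16F10 replicate 4 (9.65%). The median slope of the 22 was 1.04, 1.04 and 1.14 in these fits, close to the 1.15 of the full fit. Without both B16F10 replicate 3 and B16F0 replicate 2 the median slope was 0.45, with 0 enzymes and 0.0222% of tested genes rising. The falling members lost their calls too: 0 of 38 fell without B16F10 replicate 3 (6.7% of tested genes), and 0 without both libraries (0.214%), while Epas1, Egln3 and Ankrd37 fell without B16F0 replicate 3 (8.22%).

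**Figure D4:**
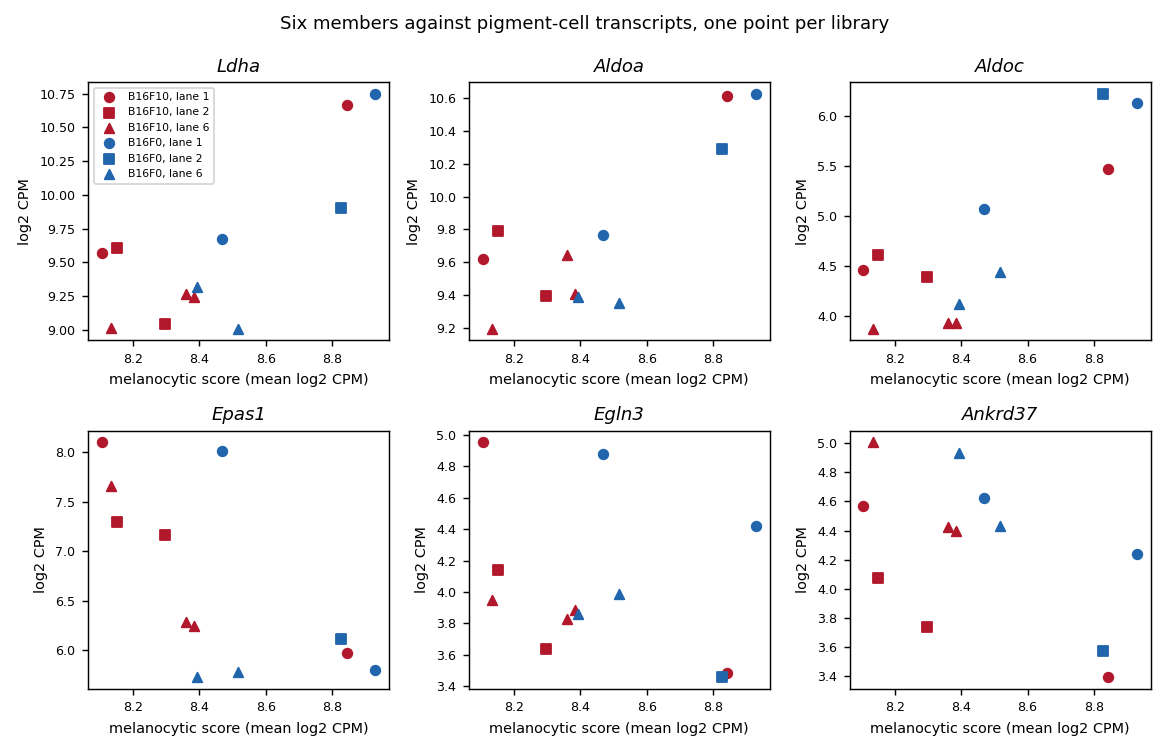
Log2 CPM of 6 genes against the melanocytic score, with 1 point per library coloured by line and shaped by sequencing lane. Ldha, Aldoa and Aldoc are high in the 3 libraries with scores from 8.83 to 8.93, and Epas1 is at 69.3 CPM or lower in all 3 of them.

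**Figure D5:**
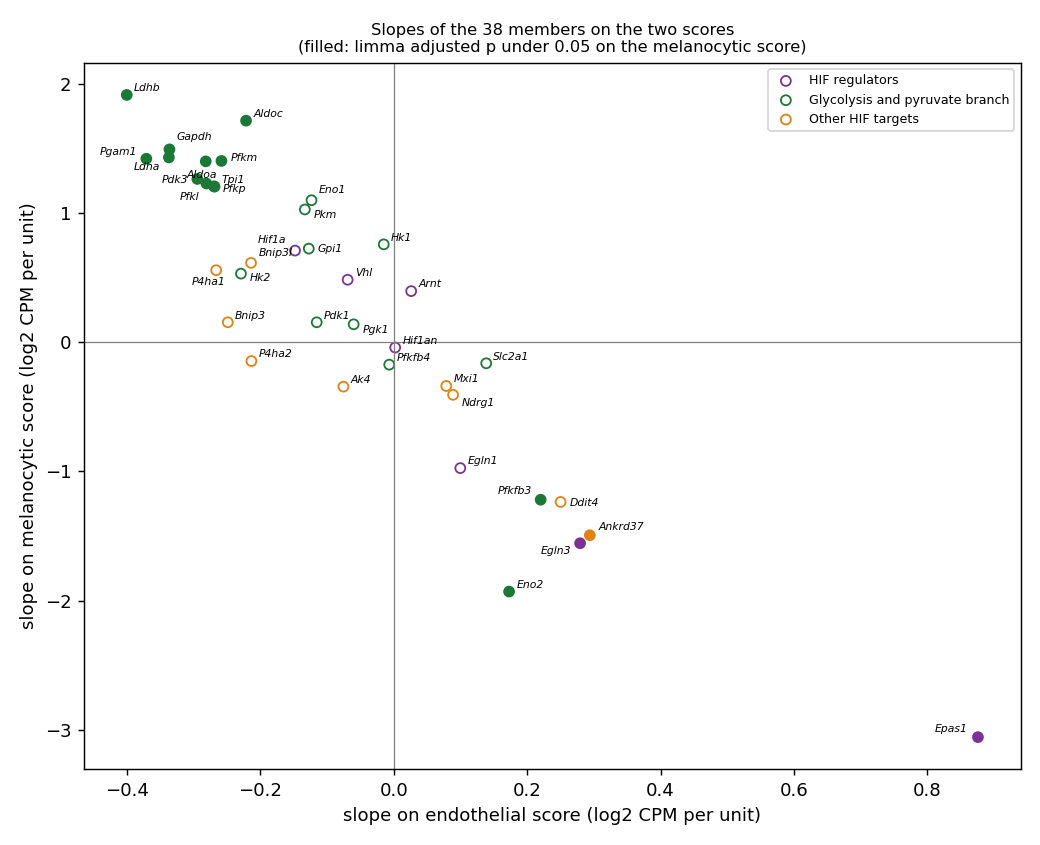
Slope of each of the 38 genes on the endothelial score (horizontal axis) and on the melanocytic score (vertical axis), both in log2 CPM per unit, coloured by role and filled where the melanocytic slope passed the test. The 2 scores come from the same 12 libraries, and Epas1 lies alone at 0.88 and -3.06.

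Sequencing lane moved with the enzymes too, in a comparison added after the values were seen. With the tumour line in the fit, 8 members were lower on lane 6 than on lane 1 (Aldoc, Hif1a, Hk1, Ldha, Ndrg1, Pfkl, Pgam1 and Pkm), against 6.24% of tested genes, and 0 were higher, against 5.4%. Ldha fell by 1.07 on the log2 scale (adjusted p = 0.0337, edgeR). The count was 0 without B16F10 replicate 3 or 7, or B16F0 replicate 2, 4 or 5, where 33, 0, 14, 20 and 2 of all tested genes were lower, in that order. In these 5 fits the log2 difference of Ldha was between -1.11 and -0.80, and the median of the 22 enzymes between -0.76 and -0.44. The count was 3 without B16F10 replicate 6 (462 genes lower) and 14 without B16F0 replicate 3 (1468 genes lower). Without both B16F10 replicate 3 and B16F0 replicate 2 it was 2 (Egln3 and Epas1, 228 genes lower). In that fit the log2 difference of Ldha was -0.43 and the median of the 22 enzymes -0.23, smaller than in the 5 fits above. Between lanes 6 and 2, 0 members were called, against 0.199% of tested genes higher and 0.163% lower on lane 6, and between lanes 2 and 1 no gene was called.

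The 9 other HIF targets showed no common direction. Their median log2 fold change was -0.07, with 3 positive and 6 negative values. Bnip3l, a receptor for the removal of mitochondria by autophagy, had the lowest adjusted p of the 38 members. It was 53.3 CPM at the lowest, 96.1 at the median and 114 at the highest in B16F10, and 136, 173, 156, 114 and 109 CPM in B16F0 replicates 1 to 5. The 3 highest libraries were B16F0, and the other 2 of that line lay inside the top of the B16F10 range. The log2 fold change was -0.55 ± 0.17 (unadjusted p = 0.00641, adjusted p = 0.119, edgeR), and DESeq2 gave an adjusted p of 0.0459.

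Its relative Bnip3 was 37.9 to 113 CPM in B16F10 and 61.5 to 92.4 CPM in B16F0. In CPM per kb of exon, the ratio of Bnip3 to Bnip3l was 0.918 to 2.01 against 0.798 to 1.44. Of Bnip3l, 24.4% of the 50-base words also occur in its pseudogene. Ak4, an adenylate kinase of mitochondria, was 49.9 CPM at the lowest, 59.96 at the median and 90.5 at the highest in B16F10. It was 35.3, 53.4, 50.8, 51.1 and 56.7 CPM in the B16F0 replicates. The lowest library was B16F0 replicate 1 and the 4 highest were B16F10. The log2 fold change of 0.42 ± 0.16 did not pass the test (unadjusted p = 0.0248, adjusted p = 0.245, edgeR).

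The prolyl 4-hydroxylase subunit genes P4ha1 and P4ha2, which act on collagen, had values of -0.15 ± 0.18 and 0.28 ± 0.21. For P4ha2 the log2 difference between the lines was 0.04 on lane 1, 1.07 on lane 2 and 0.04 on lane 6. The only B16F0 library on lane 2, replicate 1, was the lowest of all for P4ha2, at 36.6 CPM. Ddit4, an inhibitor of mTORC1 signalling, stood at 20.1 to 85.4 CPM in B16F10 and 24.2 to 65.1 CPM in B16F0. Ndrg1, Mxi1 and Ankrd37 had log2 fold changes of -0.03 ± 0.16, -0.11 ± 0.13 and -0.08 ± 0.23, and none of these 6 genes passed the test.

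Outside the members, a list of other glycolysis and pyruvate genes had 33 of 36 genes tested, of which 3 were higher in B16F10, against 1.3% of all tested genes, and 0 lower, against 1.47%. Hkdc1, a hexokinase-related gene, rose from 1.20 ± 0.83 CPM (SD, n = 5) to 6.41 ± 1.52 CPM (SD, n = 7), and Slc16a7, a monocarboxylate transporter, from 2.08 ± 0.55 to 8.87 ± 2.63 CPM. Their log2 fold changes were 2.47 ± 0.40 (adjusted p = 0.00449, edgeR) and 2.12 ± 0.27 (adjusted p = 0.000964). The lactate exporter gene Slc16a3 rose by 0.77 ± 0.14 (adjusted p = 0.0103). In a list of other HIF pathway and hypoxia genes, 48 of 50 were tested, with 2 higher (Car9, 1.00 ± 0.16, adjusted p = 0.00513, and Loxl2, 0.87 ± 0.16, adjusted p = 0.00955, edgeR) and 1 lower (Insig2, -0.68 ± 0.14, adjusted p = 0.0235). The same shares of all genes apply to the second list, and the list medians were -0.01 and -0.08. In the second list 4 of 48 genes (Angptl4, Apln, Igfbp3 and Stc1) followed the endothelial score, against 3.58% of tested genes, and no gene did so without the 3 libraries of highest score. Skeletal muscle markers also separated the lines, with 7 genes summing to 55.4 to 758 CPM in B16F10 and 15.6 to 26.9 CPM in B16F0 and 1 of 3 tested genes called higher. The 7 keratinocyte markers summed to 6.26 to 14.3 against 3.95 to 7.23 CPM, with 1 of 2 tested genes called higher. Summed reads on 1494 receptor genes, taken as a measure of background, averaged 355 CPM in B16F10 and 56.6 CPM in B16F0. The ranges overlapped, at 26.9 to 959 CPM in B16F10 and 10.6 to 133 CPM in B16F0. B16F10 replicates 1 and 2 were the highest, at 959 and 775 CPM. A fit with this background as a covariate called 310 genes and 0 members. The part of the muscle, keratinocyte or background reads in the differences of these lists, Hkdc1 and Slc16a7 included, was not tested.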

How the data were processed

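Reads had been trimmed, aligned and counted with cutadapt 1.16, STAR 2.2.1 and featureCounts 1.6.0 on mm10, and compared with edgeR in R 3.3.2, per the submitters' processing notes. Libraries were made with the ScriptSeq kit, per the labels' protocols. Which annotation, strand and multi-mapping settings the counting used is not stated there. Whole-number counts of reads for each symbol were deposited by the authors and tested as deposited. Values of the authors' deposited comparison table, written with a decimal comma, were read as decimal numbers; it lists all 38 members, and 3.24% of its 14108 rows have an FDR below 0.05. Normalized values were also deposited but lack readable decimal marks, and were left aside.

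Of 24421 symbols, 1069 had no counts and 13534 passed filterByExpr of edgeR 4.0.16 (minimum count 10). Counts were scaled by TMM and tested by quasi-likelihood with lane (1, 2 or 6, from the library names) and line as factors in R 4.3.3, with Benjamini-Hochberg adjustment over all tested genes. Each standard error is the absolute log2 fold change over the root of F; intervals of 95% use the normal distribution. CPM use TMM-scaled totals of tested genes. Slopes on the scores used limma 3.58.1 on log2 CPM (prior count 2), calling adjusted p under 0.05 and a slope beyond 0.5. Alternatives included DESeq2 1.42.0 and limma-voom. Scripts were tested on simulated data. The 31 pairs of replicates of a line differed by a chi-square per degree of freedom of at least 8.89, so none was taken as a duplicate. Exon lengths and 50-base words came from GENCODE M21 and promoters from RefSeq.

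The members and gene lists were chosen with earlier results of these data known. Members given library by library were those called, those that follow the endothelial score, Hif1a and Epas1, and the 2 of each role with the largest absolute log2 fold change; genes outside the members were named where called. Ldha and Aldoa were added after their values were seen. Depth limits the precision of low genes most in B16F10 replicate 1; Eno1 had as few as 1 count in a library.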

Additional observations from a re-analysis of the deposited data

Results flagged for a closer look

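Each member was examined in each line for a library standing far from the rest, by Dixon's ratio of the gap to the range at the 95% level, which chance exceeds in about 1 of 20 groups. Of 76 combinations of gene and line 9 exceeded it, and 5 of these lay in B16F10 replicate 3. There, Ldha stood at 1627 CPM (515 to 777 in the other B16F10 libraries), Aldoa at 1567 (586 to 884), Tpi1 at 912.5 (300.4 to 483), Pfkp at 645 (276 to 389) and Ldhb at 149.8 (43.4 to 62.3). In B16F0 replicate 2, Hk2 stood at 848 CPM, against 527 to 577 in the other B16F0 libraries. These 2 libraries share a name prefix and have melanocytic scores of 8.84 and 8.93; the part of either in the levels was not tested.

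In B16F0 replicate 3, the library with the highest endothelial score, Epas1 stood at 258 CPM against 53.0 to 69.3 in the others. In B16F10 replicate 5, where Rn45s took 31.4% of counts, Pdk1 was low at 121 CPM against 176 to 223. In B16F0 replicate 1, Ak4 was low at 35.3 CPM against 50.8 to 56.7.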

How the results depend on the processing

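Across 31 other settings, members were called under 2: Aldoc with the library name prefix in place of the lane (1 called, -0.50, adjusted p = 0.0383) and Bnip3l with DESeq2 (1 called, -0.55, adjusted p = 0.0459). In the prefix fit, B16F10 replicates 1 and 2 and B16F0 replicate 1 do not inform the comparison, because their prefixes occur in a single line. The members' median stayed negative in all 31 settings (-0.16 to -0.01). Over 1178 combinations of member and setting, 111 had the opposite sign, none of them called, in 24 members; Ak4, Aldoc, Bnip3l, Pdk1, Pdk3, Vhl and 8 others never changed sign. Epas1 was -0.24 with the melanocytic score as a covariate. Its slope on the endothelial score was -0.058 without the 3 libraries of highest score.

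Genes called between the lines numbered 375 in the reported fit, 630 with the prefix, 852 with DESeq2, 669 with limma-voom, 643 at a false discovery rate of 0.1, 608 with the melanocytic score as a covariate, 177 without lane 2, 236 without the 2 libraries rich in Rn45s, and 203 to 446 with 1 library left out (249, 203 and 241 without B16F0 replicates 1, 4 and 5). Genes following the endothelial score numbered 485, then 0 without the 3 libraries of highest score, 254 with the melanocytic covariate and 283 to 766 with 1 library left out (283 without B16F10 replicate 3, 766 and 312 without B16F0 replicates 1 and 3). The cause was not tested. After the mean of each line was subtracted, same-numbered replicates of the lines correlated at -0.29 to 0.32. The value of 0.32 was for replicate 5, with both libraries on lane 6 and rich in Rn45s. So few values cannot settle whether the numbers pair the libraries, and the labels do not say so. A replicate block in place of the lane called 58 genes and 0 members. With 1 library left out, glycolysis genes rising with the melanocytic score numbered 1 to 11.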
